A study of Danio rerio with 26 samples.

Results

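Embryos given no knockdown or homozygous EJC mutation were compared at 21 and 12 hours post fertilization (hpf), using 5 of the 26 samples of a zebrafish study of the exon junction complex (EJC). The later stage is represented by 3 libraries of magoh wild-type siblings at 21 hpf. These are pools of whole embryos from intercrosses of fish heterozygous for magoh oz37, a CRISPR/Cas9 frameshift allele, and they mix wild-type with heterozygous embryos. The earlier stage is represented by 2 libraries of control embryos at 12 hpf, pools of whole wild-type embryos that served as uninjected controls for upf1 morphants. RNA was measured by RNA-Seq, as FPKM (fragments per kilobase of transcript), a level that takes gene length into account. FPKM was scaled by size factors set within each table, and its sum over genes differed between libraries. In the same units throughout, this sum was 0.799, 4.32 and 0.887 in magoh siblings 1, 2 and 3. It was 12.7 in magoh mutant 1, against 0.435 and 0.433 in the controls. FPKM values given below for different libraries are thus not on one scale. Genes were joined on their Ensembl identifiers, which gave 28425 genes. The other magoh table libraries (3 mutant) and the 6 libraries of rbm8a oz36 mutants and siblings, all at 21 hpf, served to check each gene in further embryos of the later stage. Libraries of upf1 morphants at 12 hpf entered the normalization but no group compared.

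Both stages lie in the segmentation period of zebrafish development. During this period somites, the blocks of mesoderm that form trunk muscle and skeleton, are cut one after another from the presomitic mesoderm in time with an oscillating set of her and Notch pathway genes. Cells leaving the presomitic mesoderm switch on myogenic regulators and then assemble sarcomeres, first in slow and then in fast muscle fibres. Regulators that set the germ layers and axes during gastrulation are switched off in most cells. Over the same hours blood, lens, pigment, kidney and nerve cells begin to make their specialised products, and maternal transcripts have largely been cleared.

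Stage could not be told apart from the way the libraries were made. The 12 hpf libraries were poly(A)-selected and read as pairs. The 21 hpf libraries were depleted of ribosomal RNA, made from fragmented total RNA and read from one end, and each table was normalized on its own. No test of stage was therefore run, no p-value is given, and 3 against 2 libraries could not reach the usual threshold in an exact permutation test. In whole embryos, fewer cells of a type and less RNA per cell cannot be told apart either. The words higher and lower are used below for values, and called for genes that passed a fixed rule of size.

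The libraries at 21 hpf did not form one group. Ribosomal protein genes, among the most abundant messages of any growing cell, had a median of 11.0, 111 and 16.0 FPKM in magoh siblings 1, 2 and 3, against 588 and 580 FPKM in the 12 hpf controls. Divided by the median of all joined genes in the same library and put on the log2 scale, this contrast was 1.28, 4.89 and 1.81 in the 3 siblings, against 9.0 and 8.99 in the controls. Of the 12 libraries at 21 hpf, 5 stood apart with contrasts of 1.28 to 2.32 (magoh siblings 1 and 3, magoh mutants 2 and 3, rbm8a mutant 2), while the other 7 lay between 4.65 and 6.67. The magoh transcript itself was at 4.42, 13.6 and 6.51 FPKM in the siblings and at 17.0, 3.67 and 3.58 FPKM in the magoh mutants. The library labelled mutant 1 was thus above every sibling, and those labelled sibling 1 and 3 were close to mutants 2 and 3. The sibling name is in doubt for these libraries, which also differ in contrast, and results are given with and without the libraries of low contrast. Among the rbm8a libraries, rbm8a was at 6.99, 13.2 and 13.3 FPKM in siblings 1, 2 and 3. In rbm8a mutants 1, 2 and 3 it was at 7.01, 7.28 and 8.39 FPKM. The same limit of scale holds here. The name of rbm8a sibling 1, level with the mutants in FPKM as deposited, is treated as in doubt as well. That library enters the mean at 21 hpf of the second rule below.

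**Figure D1:**
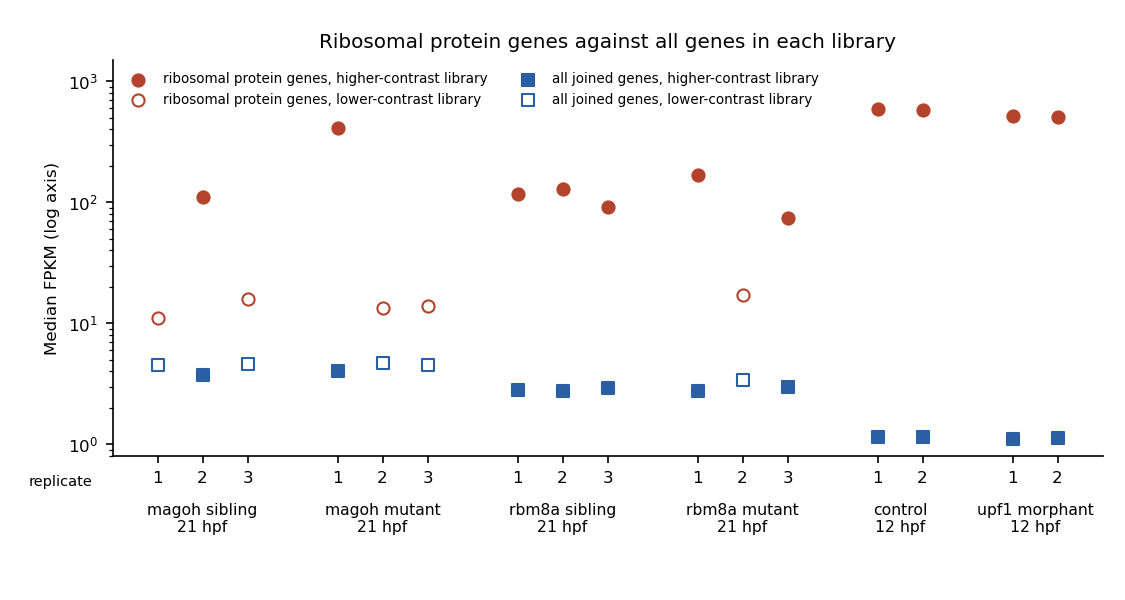
Median FPKM (log axis) of cytosolic ribosomal protein genes (circles) and of all joined genes (squares) in each library, by group and replicate, with 21 hpf groups left of 12 hpf groups; open symbols mark libraries with a contrast under 4 on the log2 scale. Magoh siblings 1 and 3 sit at 11.0 and 16.0 FPKM for ribosomal protein genes, sibling 2 at 111 and the 12 hpf controls at 588 and 580.

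A second limit is the level of genes that were not in use at 12 hpf. There were 2703 protein-coding genes under 0.1 FPKM in all 4 libraries of the 12 hpf table. Their median lay between 1.24 and 3.98 FPKM over the 12 libraries at 21 hpf, against 0.0202 and 0.0206 FPKM in the controls. A gene listed at a few FPKM at 21 hpf and near 0 at 12 hpf is thus at the level of this whole class.

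For 21 hpf, the rule fixed for the comparison used the magoh table alone. Normalization under this and the second rule below also took in the upf1 morphant libraries at 12 hpf. A gene was called when log2(FPKM + 1), quantile normalized over the libraries, differed by at least 2 between the mean of the 3 siblings and the mean of the controls, and when all 6 magoh table libraries lay on the same side of both controls. This 6-library rule called 2967 of 25765 genes tested higher at 21 hpf (11.5%) and 3754 lower (14.6%). Of the genes called higher, 1733 (58.4%) were not matched by symbol to a protein-coding gene of RefSeq, of which 1698 had no match at all and 35 matched a gene of another type. Of those called lower, 351 (9.35%) were not matched to one, 331 and 20 by the same split. Among all 25765 genes tested, 18778 were matched to a protein-coding gene. A second rule, chosen after the data were seen, kept the protein-coding genes and the 7 libraries of higher contrast from both 21 hpf tables. It took the mean at 21 hpf over the 4 of these labelled sibling and asked all 7, of which 3 are labelled mutant, to lie on one side of both controls. This 7-library rule called 1451 of 17477 genes tested higher at 21 hpf (8.30%) and 508 lower (2.91%). Shares of list members called below stand against these shares over all genes tested. Without rbm8a mutant 3 the 7-library rule called 1526 genes higher and 586 lower. Both rules tested a gene with at least 1 FPKM in both controls or in all siblings of the comparison. Genes under 0.1 FPKM at 12 hpf could thus be tested only through the 21 hpf siblings and could not be called lower. Of these the 7-library rule tested 1796 and called 412 higher, a count among genes chosen by their 21 hpf level. The same limit holds for list members near 0 at 12 hpf, so a lack of lower calls among them is no result. Both rules called 702 genes higher and 474 lower, while 5 genes were higher by the 7-library rule and lower by the 6-library rule.

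The balance of higher and lower calls depended on how the tables were scaled. Higher calls made up 44.1% of calls under the 6-library rule with quantile normalization, 72.5% with FPKM as deposited and 36.9% with FPKM divided by each library's sum. The median difference over all genes was -0.07, 1.04 and 0.10 under these scalings. Under the 7-library rule the share was 74.1%, 40.4% and 92.6%, and the median difference was -0.18, -0.03 and 1.18. Gene by gene, 1239 of the 1451 higher calls and 355 of the 508 lower calls were made under all 3 scalings of the 7-library rule. Relative to the median of all genes tested, the median of every list kept its sign under the 3 scalings of the 7-library rule, with the yolk and endoderm and the notochord lists as exceptions. The balance of higher and lower calls within a list was less stable, and where it turned in the lists below the counts under another scaling are given. For yolk and endoderm genes they were 6 higher and 8 lower with FPKM as deposited and 16 and 2 on the summed scale, and for neural patterning genes 5 and 12, and 11 and 4.

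The same size of difference was rarer between tables at one stage in the libraries of higher contrast. Between the 3 rbm8a siblings and the 3 magoh siblings at 21 hpf, 271 of 26568 genes passed (122 higher and 149 lower in rbm8a siblings). The same libraries gave 155 over protein-coding genes alone. Between the higher-contrast libraries, 5 of the rbm8a table and 2 of the magoh table with mutants included, 2 genes passed over all genes and 2 of 18334 over protein-coding genes. Those among the protein-coding genes were pex13, a peroxisome import gene, and nog5, a member of the noggin family, and both were lower in the rbm8a table. Both tables were depleted of ribosomal RNA, so these counts give no background for the change of chemistry. The contrasts of the 2 magoh libraries (4.89 and 6.67) spanned most of those of the rbm8a libraries (4.65 to 5.93). Genes that follow contrast would thus overlap and could hardly pass. The magoh siblings also mix contrasts, and without magoh sibling 2 the count of 271 became 2285.

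**Figure D2:**
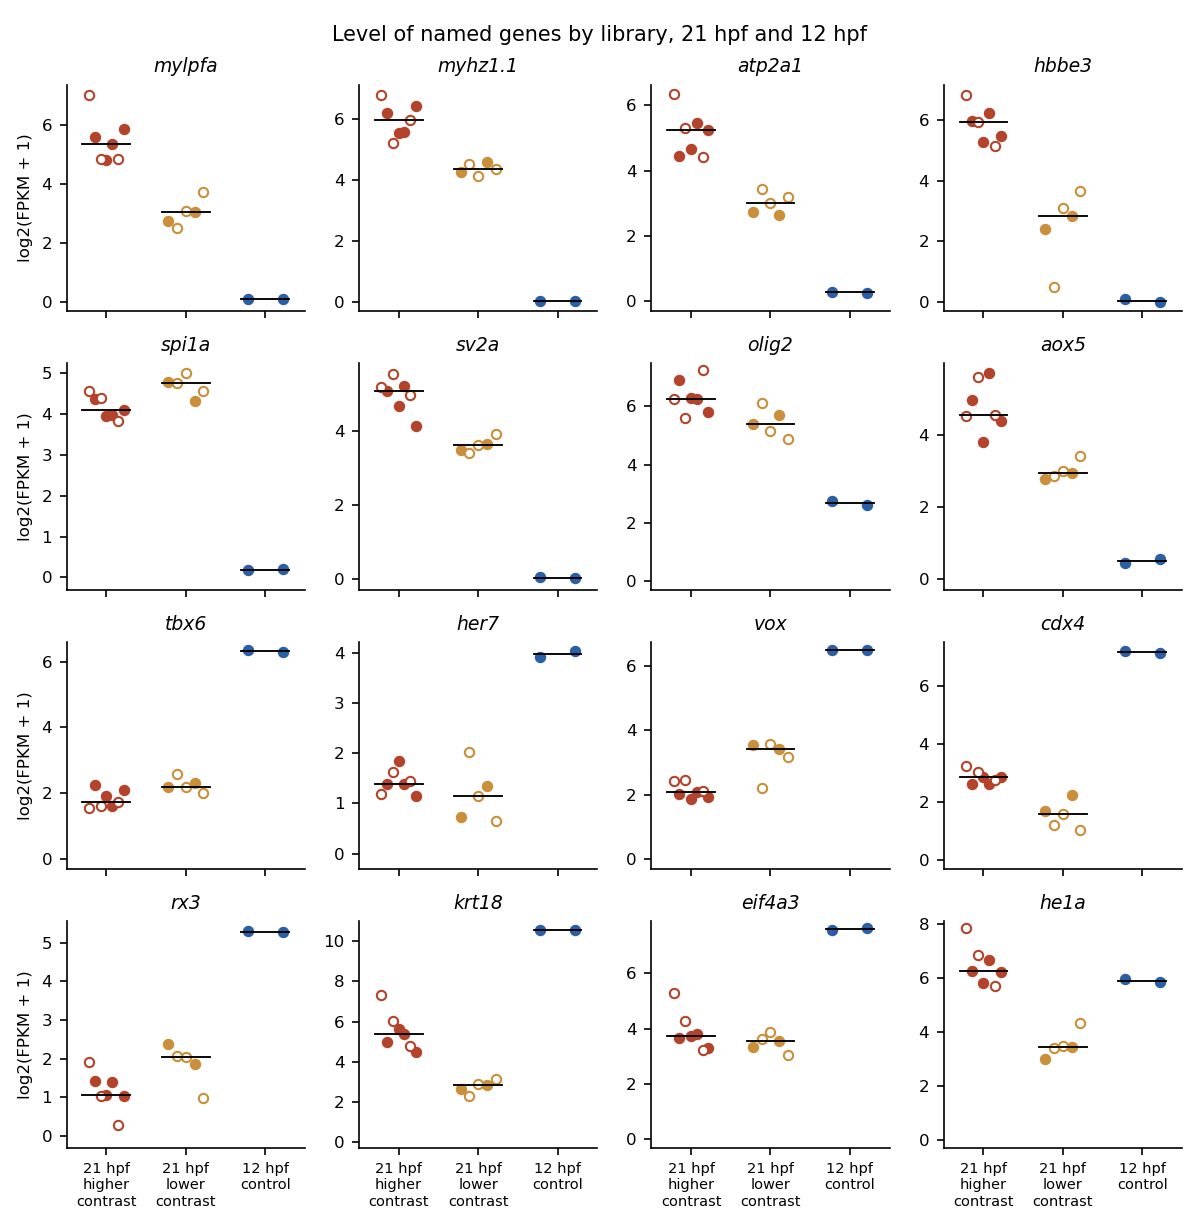
Level of genes that stand for the main groups, as log2(FPKM + 1) before normalization, in the 21 hpf libraries of higher contrast (left), the 21 hpf libraries of lower contrast (middle) and the 12 hpf controls (right). Filled points are libraries labelled sibling or control, open points are libraries labelled mutant, and bars are medians; mylpfa to aox5 are higher at 21 hpf in both kinds of library, tbx6 to eif4a3 are lower, and he1a overlaps the controls in the libraries of higher contrast and lies below them in the others.

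Genes of the gastrula and of the axes were lower at 21 hpf. Of 29 germ layer regulators tested by the 7-library rule, 9 were called lower and 1 higher, with a median difference of -1.73. Of the 9, 5 were lower under all 3 scalings, and on the summed scale 5 were lower and 3 higher. Under the 6-library rule 14 of 31 were called lower and 1 higher. Relative to all genes the list median was -1.55 with quantile normalization, -2.07 with FPKM as deposited and -2.36 on the summed scale. The ventral homeobox repressors vox and ved belonged to the lower genes. vox had 10.5, 3.01 and 9.71 FPKM in magoh siblings 1, 2 and 3 and 2.63 to 4.45 FPKM in the 7 higher-contrast libraries (median 3.25), against 88.8 and 87.9 FPKM in the controls. Its difference was -3.61 over the 7 libraries and -4.34 over the magoh table. ved had 0.386, 0.449 and 0.431 FPKM in the siblings, against 14.8 and 14.6 FPKM in the controls. No library at 21 hpf came near the controls for either gene.

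The posterior regulator cdx4, a caudal-type homeobox gene, had 2.22, 5.19 and 3.72 FPKM in the siblings and 5.11 to 8.48 FPKM in the 7 libraries, against 147 and 141 FPKM in the controls. szl (sizzled), a secreted regulator of the BMP gradient, had 2.24, 1.83 and 4.08 FPKM in the siblings, against 35.0 and 35.3 FPKM in the controls. The zinc finger factor gata2a, which acts in ventral ectoderm and blood, had 5.29, 2.74 and 6.75 FPKM in the siblings, against 38.4 and 40.9 FPKM in the controls. Values of 2 to 4 FPKM at 21 hpf are close to the medians of genes not in use at 12 hpf. The notochord regulator noto was called lower by both rules with quantile normalization but not under all 3 scalings. sox17, an endoderm factor, was the exception in the list. It had 20, 15.2 and 16.7 FPKM in the siblings and 6.26 to 17.9 FPKM in the 7 libraries, against 1.29 and 1.47 FPKM in the controls, and was called higher by both rules.

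Presomitic mesoderm genes were lower as well. Of 24 tested, 6 were called lower and none higher by the 7-library rule (median -1.44). All 6 were among the 12 lower calls of the 6-library rule, and 3 of the 6 were lower under all 3 scalings. With FPKM as deposited the 7-library rule called 9 lower and 1 higher, and on the summed scale 3 lower and 2 higher. Relative to all genes the list median was -1.26, -1.51 and -2.03 under the 3 scalings. The T-box gene tbx6, which patterns the presomitic mesoderm, had 3.52, 3.79 and 3.91 FPKM in magoh siblings 1, 2 and 3 and 1.89 to 3.79 FPKM in the 7 libraries, against 80.2 and 76.7 FPKM in the controls. msgn1, which drives cells of the tailbud into this tissue, had 7.83, 4.82 and 9.20 FPKM in the siblings, against 102 and 101 FPKM in the controls. hes6, a partner of the oscillating her genes, had 6.0, 5.12 and 9.06 FPKM in the siblings, against 106 and 104 FPKM in the controls. The 21 hpf libraries of either contrast lay well below the controls for these genes.

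Of the clock genes proper, her7 had 0.646, 1.63 and 1.54 FPKM in the siblings, against 14.1 and 15.4 FPKM in the controls. her1 had 2.12, 4.47 and 1.62 FPKM in the siblings, against 18.2 and 16.1 FPKM in the controls, a difference of -2.66 in the magoh table and -1.63 over the 7 libraries, where it was not called. her7 and the protocadherin pcdh8 lost their call under at least 1 other scaling of the 7 libraries. The Notch ligand gene dlc differed by 0.23 over the 7 libraries and by -0.45 in the magoh table, and ripply1, which closes the segmentation programme in each new somite, by 0.33 and -1.57. These genes were not called.

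The genes that lead cells into muscle went both ways. Of 21 myogenic regulators tested by the 7-library rule, 2 were called higher and 2 lower (median 0.44), and by the 6-library rule 1 and 5 (median -0.07). Among all genes tested, 8.30% were called higher and 2.91% lower by the 7-library rule. By the 6-library rule these shares were 11.5% and 14.6%. With FPKM as deposited the 7-library rule called 2 higher and 4 lower, and on the summed scale 9 and 2. pax7a, a factor of muscle and neural crest precursors, had 36.1, 46.2 and 43.0 FPKM in the siblings and 10.6 to 74.5 FPKM in the 7 libraries, against 0.164 and 0.0912 FPKM in the controls. tcf15 (paraxis), a factor of newly formed somites, had 0.337, 2.57 and 1.54 FPKM in the siblings and 1.85 to 7.49 FPKM in the 7 libraries, against 41.1 and 42.8 FPKM in the controls. prdm1a, which specifies slow muscle, had 3.90, 2.65 and 3.77 FPKM in the siblings, against 29.3 and 30.5 FPKM in the controls. All 3 were called by both rules.

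Among the other myogenic genes, myod1, the determination factor, had 5.05, 16.4 and 5.93 FPKM in the siblings and 9.55 to 33.1 FPKM in the 7 libraries, against 15.6 and 16.4 FPKM in the controls. The groups overlapped and the gene was not called. myog, which acts after myod1 in differentiating fibres, had 4.90, 5.95 and 3.37 FPKM in the siblings and 4.50 to 19.4 FPKM in the 7 libraries, against 0.794 and 0.699 FPKM in the controls. Its difference of 1.73 over the 7 libraries was just under the threshold of 2. mef2ca, a partner of these factors, passed at 2.25.

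Fast muscle sarcomere genes were the tissue list with the most calls under the 7-library rule, where 17 of 33 were higher and none lower (median 2.03, against -0.18 over all genes), and 14 of the 17 were called under all 3 scalings. By the 6-library rule 7 of 32 were higher and 1 lower (median 0.70), and 6 genes were higher by both rules. Members under 0.1 FPKM in the controls could not be called lower. mylpfa, a regulatory light chain of fast myosin, had 5.68, 47.2 and 7.38 FPKM in magoh siblings 1, 2 and 3 and 27.5 to 131 FPKM in the 7 libraries (median 39.9), against 0.0717 and 0.0647 FPKM in the controls. Its difference was 5.36 over the 7 libraries and 2.54 in the magoh table. Sibling 2, the one with higher contrast, was above siblings 1 and 3 for this gene, as it was for the heavy chain, creatine kinase and actin genes that follow.

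The fast heavy chain gene myhz1.1 had 18.4, 73.4 and 23.1 FPKM in the siblings and 36.1 to 111 FPKM in the 7 libraries, against 0.0137 and 0.0165 FPKM in the controls. Its near-identical neighbours myhz1.2, myhz2 and myha gave much the same values (differences of 6.18, 6.04 and 5.96 over the 7 libraries), and how reads were split among these copies is uncertain. ckmb, a muscle creatine kinase, had 3.88, 34.3 and 4.44 FPKM in the siblings and 18.6 to 104 FPKM in the 7 libraries, against 0.0386 and 0.0697 FPKM in the controls. actc1b, a striated muscle actin, had 21.0, 115 and 23.0 FPKM in the siblings and 83.1 to 447 FPKM in the 7 libraries, against 12.9 and 12.3 FPKM in the controls. It was thus already in use at 12 hpf, and in the low-contrast magoh mutant 2 it was at 11.2 FPKM, below both controls. tpma, a tropomyosin, had 14.6, 35.5 and 11.5 FPKM in the siblings and 22.2 to 153 FPKM in the 7 libraries, against 12.6 and 12.3 FPKM in the controls, and lost its call under at least 1 other scaling. The giant scaffold genes neb and ttn.2 differed by 1.69 and 1.38 over the 7 libraries and were not called.

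Genes that release, pump and store calcium in muscle were higher too. Of 26 tested by the 7-library rule, 7 were called higher and none lower (median 1.56), 6 of them under all 3 scalings. By the 6-library rule 4 of 29 were called higher (median 1.00). Here too, members under 0.1 FPKM in the controls could not be called lower. casq1a, the calcium store protein of the sarcoplasmic reticulum, had 36.3, 33.5 and 34.2 FPKM in the siblings and 17.1 to 40.4 FPKM in the 7 libraries, against 0.0422 and 0.0809 FPKM in the controls. In FPKM as deposited, which is not on one scale, casq1a was at a similar level in siblings of either contrast. The FPKM sum was higher in sibling 2 (4.32) than in siblings 1 and 3 (0.799 and 0.887). The differences of casq1a were 4.59 over the 7 libraries and 4.50 in the magoh table, each from its own normalization. Whether casq1a depended on the contrast of the library was not tested. atp2a1, the calcium pump of fast fibres, had 5.63, 20.7 and 5.18 FPKM in the siblings and 20.6 to 80.0 FPKM in the 7 libraries, against 0.209 and 0.195 FPKM in the controls. The calcium buffer pvalb2 had 3.12, 14.6 and 5.91 FPKM in the siblings and 5.88 to 18.6 FPKM in the 7 libraries, against 0.0696 and 0.0837 FPKM in the controls. The release channel ryr1b stayed between 2.68 and 4.09 FPKM in the 4 higher-contrast siblings, close to the medians of genes not in use at 12 hpf, and was not called.

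Of 29 slow muscle and cardiac sarcomere genes tested by the 7-library rule, 6 were called higher and none lower (median 0.83), and by the 6-library rule 5 of 30 were higher and 3 lower (median 0.63). tnnt2c, a troponin T of slow fibres, had 5.49, 22.3 and 4.18 FPKM in the siblings and 17.4 to 101 FPKM in the 7 libraries, against 0.918 and 0.764 FPKM in the controls. smyhc1, the slow myosin heavy chain that appears first in the embryo, had 6.65, 20.3 and 6.14 FPKM in the siblings and 19.6 to 86.9 FPKM in the 7 libraries, against 7.27 and 6.89 FPKM in the controls. The low-contrast libraries overlapped the controls for smyhc1, and its call was lost under at least 1 other scaling. vmhc, the ventricular myosin, had 3.77, 5.33 and 5.34 FPKM in the siblings, against 0.00914 and 0.00413 FPKM in the controls. That level is little above the genes not in use at 12 hpf.

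Primitive blood showed in the embryonic globins. Of 28 erythroid genes tested by the 7-library rule, 6 were called higher and 1 lower, all 7 under the 3 scalings (median 0.45), and by the 6-library rule 2 of 27 were higher and 2 lower (median 0.15). The embryonic beta globin hbbe3 had 4.34, 61.9 and 6.19 FPKM in magoh siblings 1, 2 and 3 and 34.5 to 114 FPKM in the 7 libraries, against 0.0522 and 0 FPKM in the controls. The alpha globin hbae3 had 3.50, 35.8 and 3.67 FPKM in the siblings and 17.1 to 79.4 FPKM in the 7 libraries, against 1.21 and 1.81 FPKM in the controls. Both were far lower in the low-contrast siblings than in sibling 2 in FPKM as deposited, which is not on one scale. They were called by the 7-library rule but not by the 6-library rule (differences of 2.62 and 0.69 in the magoh table). Another globin gene, hbbe2, was called by neither rule (1.72 over the 7 libraries and 0.69 in the magoh table). hbz, called higher by both rules, was listed at 0 in both controls and had 4.97, 11.0 and 5.98 FPKM in the siblings. rhag, a membrane channel of red cells, had 6.71, 15.6 and 6.67 FPKM in the siblings, against 0.0740 and 0.0969 FPKM in the controls.

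alas2, the haem synthesis enzyme chosen to mark red cells, had 2.12, 3.29 and 2.04 FPKM in the siblings, against 0.549 and 0.417 FPKM in the controls, and was not called. Expression of znfl2a, a zinc finger gene of the list, was lower. It had 5.71, 2.93 and 4.18 FPKM in the siblings and 2.86 to 13.1 FPKM in the 7 libraries, against 74.6 and 73.4 FPKM in the controls.

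In the myeloid list 4 of 20 genes were called higher by the 7-library rule and none lower (median 0.49), and by the 6-library rule 1 of 22 was higher and 2 lower (median 0.46). spi1a, a copy of the Pu.1 factor, had 26.7, 19.7 and 19.1 FPKM in the siblings and 13.2 to 22.6 FPKM in the 7 libraries, against 0.126 and 0.151 FPKM in the controls, and was called by both rules. The macrophage gene mpeg1.2 had 4.57, 9.20 and 5.77 FPKM in the siblings and 3.02 to 16.0 FPKM in the 7 libraries, against 0.0208 and 0.0375 FPKM in the controls. The other factor copy, spi1b, was at 6.65, 3.20 and 3.05 FPKM in the siblings, against 0.226 and 0.214 FPKM in the controls, and was not called. Of 25 endothelial genes 1 was called higher by the 7-library rule (median 0.52), and 7 were higher and 3 lower by the 6-library rule (median 0.95). Over all genes 8.30% were called higher by the 7-library rule and 11.5% by the 6-library rule. With FPKM as deposited the 7-library rule called 3 higher and 3 lower. The gene called was dll4, a Notch ligand of arteries, with 20.7, 7.34 and 16.7 FPKM in the siblings and 3.85 to 8.86 FPKM in the 7 libraries, against 0.674 and 0.729 FPKM in the controls.

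Of 48 neuronal genes 6 were called higher and none lower by the 7-library rule, all 6 under the 3 scalings (median 0.48), not far from the 8.30% and 2.91% over all genes, and by the 6-library rule 11 of 52 were higher and 2 lower (median 1.05). sv2a, a synaptic vesicle protein, had 10.3, 32.7 and 11.6 FPKM in magoh siblings 1, 2 and 3 and 16.5 to 46.0 FPKM in the 7 libraries, against 0.0227 and 0.0178 FPKM in the controls. Its difference was 4.87 over the 7 libraries and 3.35 in the magoh table. gad2, which makes the transmitter GABA, had 13.2, 6.06 and 9.88 FPKM in the siblings and 3.91 to 7.28 FPKM in the 7 libraries, against 0.0126 and 0.00568 FPKM in the controls. It was higher in the low-contrast libraries than in most of the others. The pan-neuronal RNA-binding gene elavl3, chosen to mark neurons, had 6.31, 17.0 and 8.51 FPKM in the siblings, against 23.0 and 21.5 FPKM in the controls, with differences of 0.86 over the 7 libraries and -1.02 in the magoh table, and was not called.

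Regulators of neural patterning were split. Of 52 tested by the 7-library rule, 3 were called higher and 3 lower (median -0.40), and by the 6-library rule 4 of 54 were higher and 13 lower (median -0.78). The shares over all genes were 8.30% higher and 2.91% lower by the 7-library rule. Relative to all genes, the median over the 7 libraries was -0.22, -1.01 and -1.12 under the 3 scalings. olig2, a factor of motor neuron precursors, had 41.2, 118 and 51.7 FPKM in the siblings and 47.7 to 151 FPKM in the 7 libraries, against 5.65 and 5.17 FPKM in the controls. fabp7a, a lipid-binding protein of radial glia, had 4.39, 17.4 and 4.68 FPKM in the siblings and 13.8 to 22.9 FPKM in the 7 libraries, against 0.511 and 0.533 FPKM in the controls. The genes called lower act early in the eye field and the neural plate. rx3, needed to form the eye, had 4.19, 1.68 and 2.62 FPKM in the siblings and 0.214 to 2.76 FPKM in the 7 libraries, against 38.3 and 37.4 FPKM in the controls.

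The iroquois gene irx7 had 4.80, 3.48 and 6.86 FPKM in the siblings and 1.02 to 6.05 FPKM in the 7 libraries, against 53.1 and 56.0 FPKM in the controls, and its relative irx1b was called lower as well. Another retinal homeobox gene, rx1, was called higher by the 7-library rule, at 6.82, 12.7 and 4.85 FPKM in the siblings, against 0.599 and 0.462 FPKM in the controls. The progenitor factor sox19a was at 3.62, 20.1 and 2.79 FPKM in the siblings, against 157 and 155 FPKM in the controls. Its difference was -6.00 in the magoh table but -1.18 over the 7 libraries, where it was not called.

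Of 25 lens genes tested by the 7-library rule, 5 were called higher and none lower (median 1.02). By the 6-library rule 9 of 34 were higher and none lower (median 0.84), and 4 genes were called by both. Members near 0 FPKM at 12 hpf could not be called lower, so the lack of lower calls among them is no result. lim2.4, a membrane protein of lens fibres, had 96.6, 43.3 and 71.6 FPKM in the siblings and 13.8 to 82.7 FPKM in the 7 libraries, against 0.0251 and 0.0226 FPKM in the controls. crybb1, a beta crystallin, had 28.1, 27.9 and 29.0 FPKM in the siblings and 5.43 to 30.1 FPKM in the 7 libraries, against 0.616 and 0.636 FPKM in the controls. hsf4, a heat shock factor of lens, had 7.35, 9.77 and 6.33 FPKM in the siblings, against 0.00831 and 0 FPKM in the controls. cryaa, the alpha crystallin chosen to mark lens, stayed at 2.13, 2.0 and 1.59 FPKM in the siblings, against 0.0193 and 0.0262 FPKM in the controls. That is close to the medians of genes not in use at 12 hpf, and it was not called.

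In the neural crest and pigment list 3 of 29 genes were called higher and 2 lower by the 7-library rule (median 0.30), and 2 of 31 higher and 7 lower by the 6-library rule (median 0.15). Over all genes the 7-library rule called 8.30% higher and 2.91% lower. With FPKM as deposited the 7-library rule called 4 higher and 7 lower, and on the summed scale 16 and 1. aox5, an oxidase of yellow pigment cells, had 5.81, 30.3 and 6.68 FPKM in the siblings and 13.0 to 51.5 FPKM in the 7 libraries, against 0.351 and 0.458 FPKM in the controls. gch2, which makes the pteridine precursor of these cells, had 3.22, 16.8 and 2.85 FPKM in the siblings and 5.20 to 16.8 FPKM in the 7 libraries, against 0.142 and 0.301 FPKM in the controls. snai1b, a repressor of cell adhesion in migrating mesoderm and crest, had 9.10, 2.10 and 9.90 FPKM in the siblings and 2.10 to 7.99 FPKM in the 7 libraries, against 37.5 and 39.8 FPKM in the controls. The melanin enzyme dct, the marker chosen for pigment cells, was at 3.06, 3.32 and 3.25 FPKM in the siblings, against 0.0145 and 0.0131 FPKM in the controls, and was not called.

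**Figure D3:**
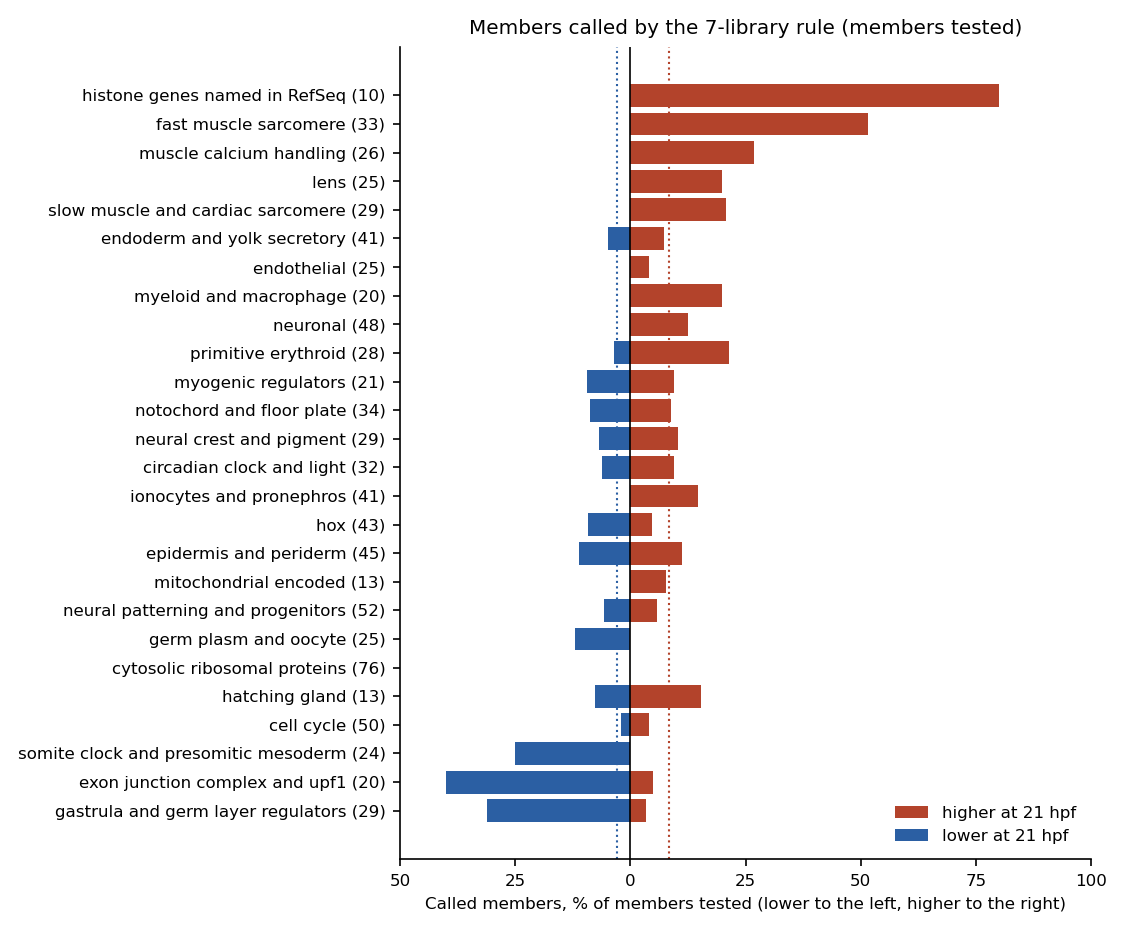
Share of the tested members of each gene list called higher (bars to the right) and lower (bars to the left) at 21 hpf by the 7-library rule, in percent, with the number of members tested in parentheses; dotted lines mark the shares over all 17477 genes tested, 8.30% higher and 2.91% lower. Histone and fast muscle genes have the largest shares of higher calls, and EJC, germ layer and presomitic mesoderm genes have the largest shares of lower calls.

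Counts of skin genes called differed between the rules. Of 47 epidermis and periderm genes 28 were called lower and none higher by the 6-library rule (median -2.69), but by the 7-library rule 5 of 45 were called lower and 5 higher (median -0.30). With FPKM as deposited the same 7 libraries gave 19 lower and 2 higher (median -1.58), and the magoh table restricted to protein-coding genes gave 14 lower and 1 higher. All 5 lower calls were made by both rules and under all 3 scalings, and 2 of the 5 higher calls held under all 3 scalings. krt5, a keratin of the epidermis, had 62.1, 58.2 and 70.6 FPKM in magoh siblings 1, 2 and 3 and 38.1 to 208 FPKM in the 7 libraries, against 2811 and 2579 FPKM in the controls. krt18, a keratin of simple epithelia, had 5.16, 30.9 and 6.09 FPKM in the siblings and 21.4 to 158 FPKM in the 7 libraries, against 1522 and 1537 FPKM in the controls. krt8, its usual partner, had 6.13, 49.0 and 6.42 FPKM in the siblings and 37.8 to 231 FPKM in the 7 libraries, against 1158 and 1220 FPKM in the controls.

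krt4, the keratin of the outer skin layer chosen as the skin marker, had 42.6, 598 and 50.4 FPKM in the siblings and 452 to 2451 FPKM in the 7 libraries, against 2835 and 2828 FPKM in the controls. Its difference was -7.00 in the magoh table and -1.19 over the 7 libraries, where it was not called. icn, a small calcium-binding protein of the skin, had 2.04, 56.5 and 4.62 FPKM in the siblings and 28.9 to 92.9 FPKM in the 7 libraries, against 20.9 and 23.5 FPKM in the controls. The low-contrast libraries lay below the controls and the others above them, so no direction is given for icn.

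The hatching gland was split in its main product as well. The hatching enzyme he1a had 6.84, 74.3 and 9.91 FPKM in the siblings and 51.2 to 229 FPKM in the 7 libraries, against 61.1 and 55.8 FPKM in the controls. It was called lower by the 6-library rule (-2.55) and higher by the 7-library rule (2.15), and the second call was lost under at least 1 other scaling. Its near copy he1b had 13.1, 82.8 and 13.5 FPKM in the siblings, against 42.7 and 43.7 FPKM in the controls, and the split of reads between these copies is uncertain. Over the list the 7-library rule called 2 of 13 higher and 1 lower (median -0.61), and the 6-library rule 5 of 14 lower (median -1.83). With FPKM as deposited the 7-library rule called 4 lower and none higher.

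Secreted proteins of yolk and endoderm turned between the rules. By the 6-library rule 14 of 42 were called lower and 3 higher (median -0.75), and by the 7-library rule 2 of 41 lower and 3 higher (median 0.71). Relative to all genes the median over the 7 libraries was 0.89 with quantile normalization but -0.04 with FPKM as deposited and 0.02 on the summed scale, so the list had no steady direction. fetub, a fetuin-type protease inhibitor, had 6.71, 38.1 and 2.56 FPKM in the siblings and 30.1 to 174 FPKM in the 7 libraries, against 1670 and 1701 FPKM in the controls, and was called lower by both rules. apoeb, an apolipoprotein E made in the yolk syncytial layer and skin, had 8.64, 130 and 14.5 FPKM in the siblings and 81.6 to 509 FPKM in the 7 libraries, against 1539 and 1555 FPKM in the controls. rbp4, the retinol carrier, had 12.0, 44.0 and 10.6 FPKM in the siblings and 16.9 to 55.8 FPKM in the 7 libraries, against 1.69 and 2.21 FPKM in the controls.

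Ionocyte and kidney genes were called higher in 6 of 41 cases and lower in none by the 7-library rule (median 0.11), and in 5 and 3 of 43 cases by the 6-library rule (median 0.18). slc12a3, a sodium chloride cotransporter of the kidney tubule, had 15.8, 19.8 and 16.9 FPKM in the siblings and 7.27 to 19.8 FPKM in the 7 libraries, against 0.0348 and 0.00314 FPKM in the controls. atp1a1a.4, a sodium pump subunit, had 4.26, 11.4 and 4.32 FPKM in the siblings and 7.44 to 21.8 FPKM in the 7 libraries, against 0.150 and 0.124 FPKM in the controls. Notochord and floor plate genes went both ways, with 3 of 34 higher and 3 lower by the 7-library rule (median 0.37) and 3 of 35 higher and 7 lower by the 6-library rule (median -0.59). The share of higher calls by the 7-library rule was close to the 8.30% over all genes. The list median relative to all genes was 0.55 with quantile normalization, but -0.47 and -0.40 under the other scalings. cmn (calymmin), a protein of the notochord sheath, had 8.48, 51.0 and 12.0 FPKM in the siblings and 11.9 to 95.7 FPKM in the 7 libraries, against 0.822 and 0.702 FPKM in the controls. The laminin genes lamb1a and lamc1, which build the basement membrane around the notochord, were lower. lamb1a had 8.56, 9.11 and 8.58 FPKM in the siblings and 6.88 to 33.6 FPKM in the 7 libraries, against 200 and 207 FPKM in the controls.

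Of the EJC core genes, rbm8a and eif4a3 were called lower at 21 hpf by both rules, and magoh by the 6-library rule only. The list held EJC and nonsense-mediated decay genes and also foxo3b, which the paper proposes as a target of this decay and which was not called. Of 20 tested, 8 were called lower and 1 higher by the 7-library rule (median -1.54). By the 6-library rule 14 were called lower and none higher (median -3.10). All 8 lower calls were made by both rules, and 6 held under all 3 scalings. rbm8a, one of the core proteins, had 9.22, 15.4 and 9.51 FPKM in magoh siblings 1, 2 and 3 and 6.99 to 42.5 FPKM in the 7 libraries, against 263 and 260 FPKM in the controls. In the 3 rbm8a siblings alone it was at 6.99, 13.2 and 13.3 FPKM, and some of the 7 libraries are labelled rbm8a mutants. eif4a3, the RNA helicase of the core, had 9.0, 11.7 and 10.7 FPKM in the siblings and 8.27 to 37.8 FPKM in the 7 libraries, against 186 and 199 FPKM in the controls.

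The 21 hpf embryos of the magoh table descend from magoh heterozygotes, so the level of magoh is tied to genotype as well as stage. magoh had 4.42, 13.6 and 6.51 FPKM in the siblings and 9.88 to 24.5 FPKM in the 7 libraries, against 114 and 123 FPKM in the controls. It was called lower in the magoh table (-5.06) but not over the 7 libraries (-1.02). upf1, the helicase of nonsense-mediated decay, had 10.8, 10.1 and 13.3 FPKM in the siblings, against 45.2 and 45.9 FPKM in the controls, with a difference of -2.03 in the magoh table and -0.38 over the 7 libraries. acin1a, a subunit of a complex that joins the EJC in splicing, had 4.93, 4.40 and 4.46 FPKM in the siblings, against 147 and 134 FPKM in the controls, and was called lower by both rules. The gene called higher was upf3a, a paralogue of upf3b, with 3.72, 9.50 and 3.91 FPKM in the siblings and 7.15 to 18.0 FPKM in the 7 libraries, against 0.0152 and 0.0319 FPKM in the controls. In siblings 1 and 3 upf3a was level with the median of genes not in use at 12 hpf (3.91 and 3.92 FPKM), and in sibling 2 it was above it (2.60 FPKM). The 6-library rule did not call upf3a (1.60). upf3b had 1.75, 2.61 and 2.62 FPKM in the siblings, against 18.9 and 17.2 FPKM in the controls, and was called lower.

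Genes of the cell cycle, of the ribosome and of the mitochondrial genome gave very different counts under the rules, which differ in libraries and in the genes normalized together. By the 6-library rule 38 of 52 cell cycle genes were called lower and none higher (median -3.34), but by the 7-library rule 1 of 50 was lower and 2 higher (median -1.07), and with FPKM as deposited 36 of the 50 were lower. Restricting the magoh table to protein-coding genes gave 26 of 51 lower. None of the 3 calls of the 7-library rule held under all 3 scalings. pcna, the sliding clamp of DNA replication, had 22.2, 60.9 and 19.3 FPKM in the siblings, against 537 and 529 FPKM in the controls, with differences of -4.77 in the magoh table and -1.26 over the 7 libraries. For ribosomal protein genes 76 of 77 were called lower by the 6-library rule (median -5.61) and 0 of 76 by the 7-library rule (median -0.52), against 61 of 76 lower and 1 higher with FPKM as deposited and 43 of 76 lower in the magoh table restricted to protein-coding genes. All 13 genes of the mitochondrial genome were lower by the 6-library rule (median -5.67), whereas by the 7-library rule 1 of 13 was called, higher (median -0.37). With FPKM as deposited the 7-library rule called 7 of 13 lower and none higher (median -2.05), and the magoh table restricted to protein-coding genes 6 of 13 lower. Each of these lists holds abundant messages, and library contrast was itself measured on the ribosomal protein genes.

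**Figure D4:**
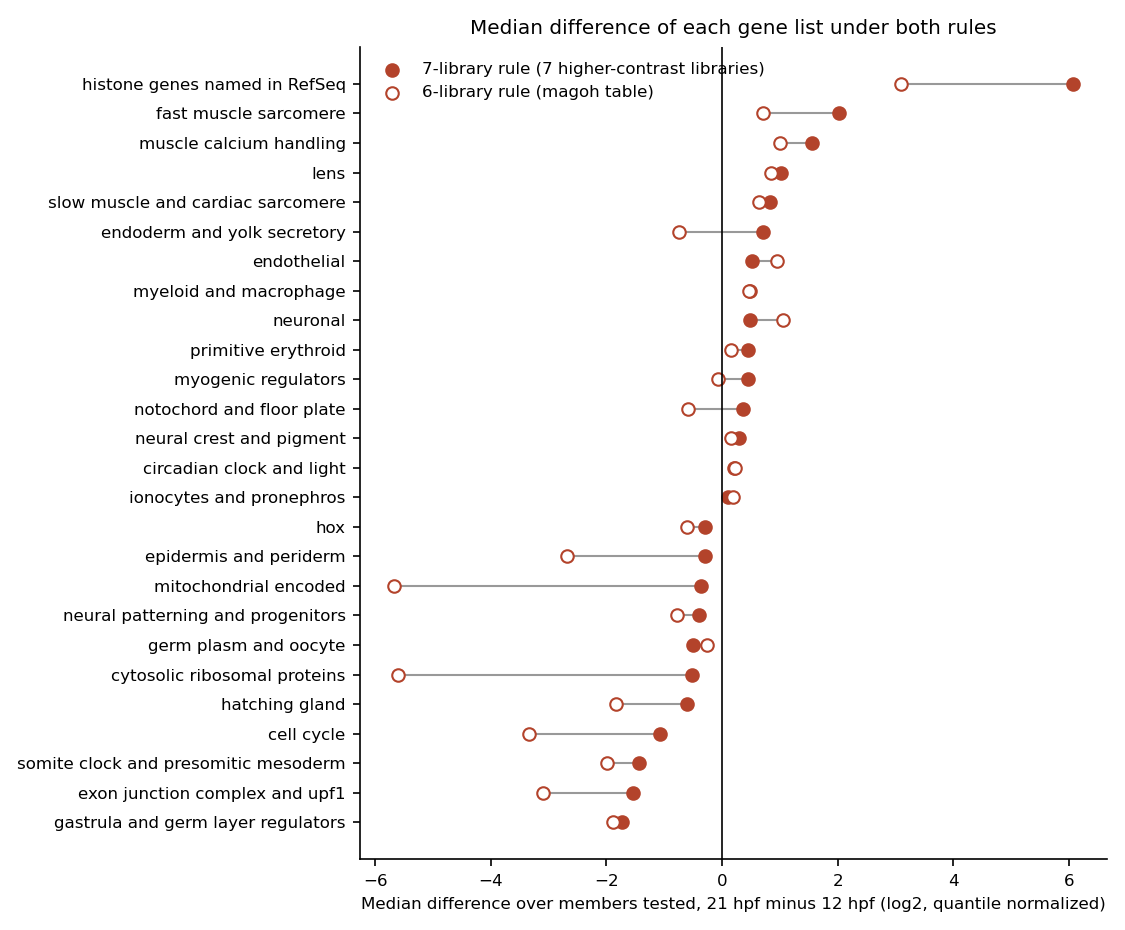
Median difference of each gene list, 21 hpf minus 12 hpf, on the quantile normalized log2 scale, under the 7-library rule (filled) and the 6-library rule (open). Ribosomal protein genes lie at -0.52 and -5.61, mitochondrial genes at -0.37 and -5.67 and cell cycle genes at -1.07 and -3.34, while the sarcomere and calcium lists lie above 0 and germ layer genes below 0 under both.

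Hox genes, which set position along the body, were called higher in 2 and lower in 4 of 43 cases by the 7-library rule (median -0.30) and lower in 9 of 44 by the 6-library rule (median -0.61). Of the 4 lower calls 1 held under all 3 scalings, and on the summed scale 11 were higher and 1 lower (median 0.69), so no direction is given. hoxb1b, an early gene of the hindbrain, had 3.28, 2.72 and 1.82 FPKM in the siblings, against 49.5 and 49.3 FPKM in the controls. hoxc4a had 14.5, 29.4 and 16.8 FPKM in the siblings, against 3.36 and 3.63 FPKM in the controls. Egg coat (zona pellucida) genes made up the 3 lower calls among 25 germ line and oocyte genes, with none higher by the 7-library rule (median -0.50), against 9 higher and 3 lower on the summed scale. zp2.5 had 8.90, 2.91 and 9.02 FPKM in the siblings, against 34 and 40.7 FPKM in the controls, and reads may be shared among the zp2 copies. The germ cell helicase ddx4, the marker chosen for germ cells, was at 4.10, 1.74 and 4.64 FPKM in the siblings, against 6.84 and 5.75 FPKM in the controls, and was not called. In the circadian list 3 of 32 were called higher and 2 lower by the 7-library rule (median 0.21), and 2 and 3 with FPKM as deposited. The share of higher calls by the 7-library rule was close to the 8.30% over all genes. nr1d4b, a Rev-erb type repressor, had 8.07, 34.4 and 8.14 FPKM in the siblings and 15.3 to 34.4 FPKM in the 7 libraries, against 0.258 and 0.204 FPKM in the controls, and was called by both rules.

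RNAs that mostly lack a poly(A) tail were higher in most cases. Small non-coding RNAs were higher at 21 hpf in 84 of 99 cases and lower in none (median 5.78, 6-library rule). rn7sl1, the RNA of the signal recognition particle, had 1205, 28175 and 1575 FPKM in the siblings, against 11.8 and 3.57 FPKM in the controls. rn7sk, which holds back a transcription elongation kinase, had 263, 4225 and 379 FPKM in the siblings, against 3.10 and 0.959 FPKM in the controls. Of 10 histone genes tested by the 7-library rule 8 were called higher and none lower (median 6.07). By the 6-library rule 9 of 11 were higher and 1, histh1l, was lower at -3.68 (list median 3.09). Most histone messages end in a stem loop instead of a tail, and poly(A) selection removes most of both classes. hist2h3c had 44.0, 406 and 64.4 FPKM in the siblings, against 10.2 and 9.61 FPKM in the controls. Stage and chemistry cannot be told apart for these RNAs.

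Several large differences were in genes outside the lists. tmx2b, a thioredoxin-related membrane protein, had 5.19, 7.42 and 4.58 FPKM in the siblings and 3.87 to 8.83 FPKM in the 7 libraries, against 1482 and 1877 FPKM in the controls, the lowest difference of the 7-library rule (-6.57). ccni (cyclin I) had 11.3, 8.22 and 10 FPKM in the siblings, against 1420 and 2005 FPKM in the controls. dbf4, the activator of a replication kinase, had 3.70, 6.11 and 5.70 FPKM in the siblings, against 690 and 856 FPKM in the controls. All 12 libraries at 21 hpf lay below the controls for these genes, whatever their contrast. mcl1b, which blocks cell death, had 2.15, 7.91 and 1.80 FPKM in the siblings, against 607 and 692 FPKM in the controls. hnrnpa1b, an RNA-binding protein of splicing, had 14, 11.9 and 16.6 FPKM in the siblings, against 1132 and 1048 FPKM in the controls.

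On the higher side nabp1b, a single-stranded DNA binding protein, had 175, 6489 and 242 FPKM in the siblings, against 0.487 and 0.429 FPKM in the controls. A transfer RNA gene overlaps it in RefSeq, so its reads may not be its own. It was the 1 gene with such an overlap among the 10 largest differences of the 7-library rule that could be named (clone names and names shared by several identifiers left out), and over all calls 20 of the 1451 higher genes (1.38%) overlapped a small RNA gene, against 1.45% of genes tested. znf106b, a zinc finger gene, had 218, 1101 and 314 FPKM in the siblings, against 0.539 and 0.630 FPKM in the controls. prkar2b, a regulatory subunit of protein kinase A, had 55.3, 816 and 78.7 FPKM in the siblings, against 0.0940 and 0.10 FPKM in the controls. In FPKM as deposited these genes were higher in sibling 2, whose FPKM sum was also higher, than in siblings 1 and 3.

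A few genes were high in every library at 21 hpf and close to 0 at 12 hpf. gstp2, a glutathione transferase, had 189, 245 and 165 FPKM in the siblings and 75.1 to 269 FPKM in the 7 libraries, against 0 and 0.0566 FPKM in the controls. pyyb, a gut and brain peptide of the neuropeptide Y family, had 250, 129 and 208 FPKM in the siblings and 81.9 to 178 FPKM in the 7 libraries, against 0.0640 and 0.0192 FPKM in the controls. hpdb, an enzyme of tyrosine breakdown, was listed at 0 in both controls and had 22.8, 213 and 30.3 FPKM in the siblings. gstp2 and pyyb were called higher by both rules, with differences of 7.66 and 6.90 over the 7 libraries.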

How the data were processed

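The authors deposited FPKM per gene and library, scaled by size factors per table, beside the mean of normalized counts (a signal per gene, used only to recover whole reads). Their notes name TopHat2 2.0.14, cutadapt 1.16 and GRCz10. Their columns of fold changes, standard errors, statistics and p-values hold their own comparisons and were not used. The RIP-Seq and rbm8a 27 hpf tables were not used here. Whole reads were recovered for 100% of values up to 20 reads (tolerance 0.05), giving 14884582 to 16887639 reads in the magoh siblings and 73345144 and 81602044 in the controls.

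FPKM tables were joined by gene identifier. log2(FPKM + 1) was quantile normalized with Python 3.11.15, numpy 2.4.6, pandas 2.3.3 and matplotlib 3.10.9. The upf1 morphant libraries were included in that step. Genes needed an FPKM of 1 in both controls or all siblings of the comparison. Simulated data were also run, but no outcome of that run is given, so it lends no weight to either rule. Gene names were given to 4361 of 7359 identifiers without a symbol, and gene types came from RefSeq by symbol.

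Members and the 27 gene lists were chosen with earlier results of these data known, and the histone, small RNA, mitochondrial and ribosomal lists were amended after the data were seen. Named genes are the 10 largest differences per direction and rule with an FPKM of at least 5 at the high stage in every library, leaving out clone names and names shared by several identifiers (such as U6), the markers and up to 4 called members of each list, and magoh, rbm8a and upf1. Other members named were chosen after their values were seen.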

Additional observations from a re-analysis of the deposited data

How the results depend on the processing

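No paired analysis was possible because the results come from no test and replicate numbers tie no library at 21 hpf to one at 12 hpf. Under the 6-library rule, genes higher at 21 hpf numbered 4739 by percentile rank, 7316 with FPKM as deposited, 1796 at a difference of 3 and 1710 with protein-coding genes alone normalized and tested (2932 to 3352 leaving out 1 library). Genes lower numbered 5814 by rank, 6464 on the summed scale, 5813 with a pseudocount of 0.1, 1702 at a difference of 3 and 1881 with protein-coding genes alone (3551 to 4322). Under the 7-library rule, chosen after seeing the data like the protein-coding count, genes higher numbered 2974 by rank, 6824 on the summed scale, 2388 with a pseudocount of 0.1 and 552 at a difference of 3 (1311 to 1561). Genes lower numbered 2712 by rank, 2704 with FPKM as deposited, 1509 with a pseudocount of 0.1 and 83 at a difference of 3 (408 to 662). Between the tables of 21 hpf, 460 genes passed with FPKM as deposited, 155 with protein-coding genes alone, and 2 between the higher-contrast libraries (mutants included), both over all genes and over protein-coding genes. Leaving out 1 library gave 120 to 2285, with 2285 without magoh sibling 2, 120 and 145 without siblings 1 and 3, and 560 without rbm8a sibling 3. List members called higher numbered 305 with FPKM as deposited and 96 over the 7 libraries, against 161 under the 6-library rule, and those called lower 51 over the 7 libraries, against 275. Of the 161, 84 were small non-coding RNAs, which the 7-library rule did not test, so the counts of 161 and 96 cover unlike genes. The cause of these differences was not tested.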
